A study of Mus musculus with 6 samples.

Results

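The 10 genes described here encode factors that transcribe, copy, coat and express mitochondrial DNA: Tfam, Polrmt, Tfb1m, Tfb2m, Polg, Polg2, Peo1, Ssbp1, Lrpprc and Slirp. They were taken by name from a deposited table of 23119 rows, and all 10 were found. A row was kept if any of its comma-separated names was a member, and each member stood on a row with no other gene name. Polg2 had 2 rows, and the one with the higher mean was used. The series measured RNA by sequencing in erythroid cells of the mouse fetal liver, taken at embryonic day 13.5 and sorted for the surface markers CD71 and Ter119. The first is the receptor that takes up transferrin-bound iron, and the second is an antigen of red cell precursors. The labels name 3 libraries Tfam WT and 3 Tfam KO, numbered 1 to 3 in each group, and give the strain of all of them as C57BL/6. No source used here gives the Cre driver, the deleted exons, the litters or the sex. Nor does any label state that each replicate is its own embryo, and p-values then cover the spread of these libraries alone, which may be technical.

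Mitochondrial DNA is a small circular genome that encodes core subunits of the respiratory chain together with the ribosomal and transfer RNAs needed to make them. Every protein that maintains and reads it is encoded in the nucleus and imported. Tfam coats and bends mitochondrial DNA into nucleoids and, with Tfb2m, places the RNA polymerase Polrmt at the promoters. The polymerase Polg with its accessory subunit Polg2, the helicase Peo1 (now called Twnk) and the single-strand binding protein Ssbp1 replicate it, and the complex of Lrpprc and Slirp stabilises its mRNAs. Developing erythroblasts use mitochondria to make heme and iron-sulfur clusters before the organelles are cleared from the maturing red cell.

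Upstream of their start sites most of these genes share a short motif that the choice of genes did not use. The letters CCGGAAG, a core bound by GABP and other ETS factors, were searched on both strands in RefSeq promoters (GRCm38.p6, 300 bases each, from 250 before the start site to 50 after it). All 10 members had a promoter entry, Peo1 under Twnk, and 7 of them held the motif. It was found in 8.86% of all 32851 promoters, in the promoters of 25.1% of the 5926 tested genes with an entry, and in those of 27.0% of 63 other genes of mitochondrial DNA expression and maintenance. The stretches nearest the start site are shown to make this shared element visible, on the strand of the gene, with the motif in capitals. It reads CTTCCGG where the match lies on the opposite strand.
Tfam (chr10:71238074-71238102, minus strand): cctgccgcggaCCGGAAGtccgggcttcc
Polrmt (chr10:79746607-79746635, minus strand): ccctaagagcgCTTCCGGcagtcgcagaa
Polg (chr7:79466294-79466322, minus strand): gaggacctcacCCGGAAGtccctctgcac
Polg2 (chr11:106779549-106779577, minus strand): cgggtgacgctCTTCCGGgggcgtggtct
Peo1 (chr19:45006481-45006509, plus strand): ggagagttttgCTTCCGGagtcaccgcga
Ssbp1 (chr6:40471410-40471438, plus strand): ggctccgtgcgCCGGAAGcgagccgctgg
Slirp (chr12:87443874-87443895, plus strand): tctggcaggttCTTCCGGggtc

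In Tfam and Ssbp1 the motif began 47 bases before the start site, in Polrmt 43, in Polg 38, in Polg2 29, in Peo1 66 and in Slirp 11. These letters were not in the windows of Tfb1m, Tfb2m and Lrpprc. A second motif, a core bound by NRF1 (GCGCA, any base, GCGC, searched on both strands), was in 1 member promoter, that of Polrmt. There 2 overlapping matches lay on the opposite strand. The first began 6 bases before the start site and crossed it, and the second began at the start site. This NRF1 motif was in 4.60% of all promoters, while 14.4% of tested genes and 19.0% of the 63 other genes had it. For both motifs a gene counted if any of its promoters held a match. Both motifs were chosen with the data known, and a match is a description of letters, not a measured binding site.

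The libraries were not alike in ways that touch the members. The RPKM values of a library summed to between 423263 and 535933, except in WT replicate 3, where they summed to 815524. WT replicate 3 correlated at 0.930 to 0.962 with the others across tested genes, and the others at 0.973 or more with each other. In that library the median deviation from the 6-library mean was 0.687 on the log2 scale over the fifth of genes with short transcripts and -0.533 over the fifth with long ones. The fold changes of the members below are therefore also given without WT replicate 3. The medians for short and long transcripts were -0.298 and 0.173 in KO replicate 1, and -0.196 and 0.173 in WT replicate 2. The 11 erythroid markers were present in every library at 56.7 to 5510 RPKM, and the highest mean was that of Slc4a1, the anion exchanger of the red cell membrane (3331 to 4681 RPKM). Of 11 macrophage markers Cd163 was listed at 0 in every library, and the sum over the list was 12.5 to 19.0 RPKM in WT and 4.73 to 11.7 in KO. These macrophage sums did not overlap between the groups and were lower in KO, with no single marker above 6.05 RPKM. In the fit of KO against WT described below, 0 of the 6 tested macrophage markers passed an adjusted p of 0.05 (background 0%). How often sums over other lists separate was not computed. Hepatocyte markers summed to 39.3 to 85.4 RPKM in WT and 14.9 to 137 in KO, megakaryocyte markers to 39.6 to 73.2 and 26.1 to 83.6, and neutrophil markers to 36.8 to 155 and 26.4 to 65.7. Klf1, Itga2b and Gp1bb in these lists stood on rows shared with Dnase2a, Gpatch8 and Sept5, so their values may include other genes. The part of the cells of these types in the members' values was not tested. Fewer cells of a type and less RNA per cell cannot be told apart in such bulk samples.

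Tfam, the gene the labels call deleted, was detected throughout. WT replicates 1, 2 and 3 held 7.22, 8.44 and 5.72 RPKM of it, and KO replicates 1, 2 and 3 held 5.92, 7.22 and 6.25 RPKM. The highest value was that of WT replicate 2 and the lowest that of WT replicate 3, so the KO values lay inside the WT range. The KO mean was 90.8% of the WT mean, and 82.6% of it without WT replicate 3. Without that library KO replicate 2 and WT replicate 1 were still at the same rounded level, and the log2 fold change of RPKM + 1, -0.11 with all libraries (95% interval -0.52 to 0.29), came to -0.24 (-0.55 to 0.06). The difference of the mean levels was -0.658 RPKM with all libraries (exact two-sided permutation test, p = 0.700, with 0.1 the smallest that 3 against 3 allows). Without WT replicate 2 it was -0.00126 RPKM and without WT replicate 3 it was -1.36 RPKM (exact permutation p = 0.3). Leaving out a KO library gave -0.385 RPKM without KO replicate 1, -1.04 RPKM without KO replicate 2 and -0.551 RPKM without KO replicate 3, and leaving out WT replicate 1 gave -0.612 RPKM. A gene-level value counts reads from exons that a partial deletion leaves in place, and the table does not separate exons. The labels thus go unchecked by the Tfam level, and KO and WT stand here for what the labels call the libraries.

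**Figure D1:**
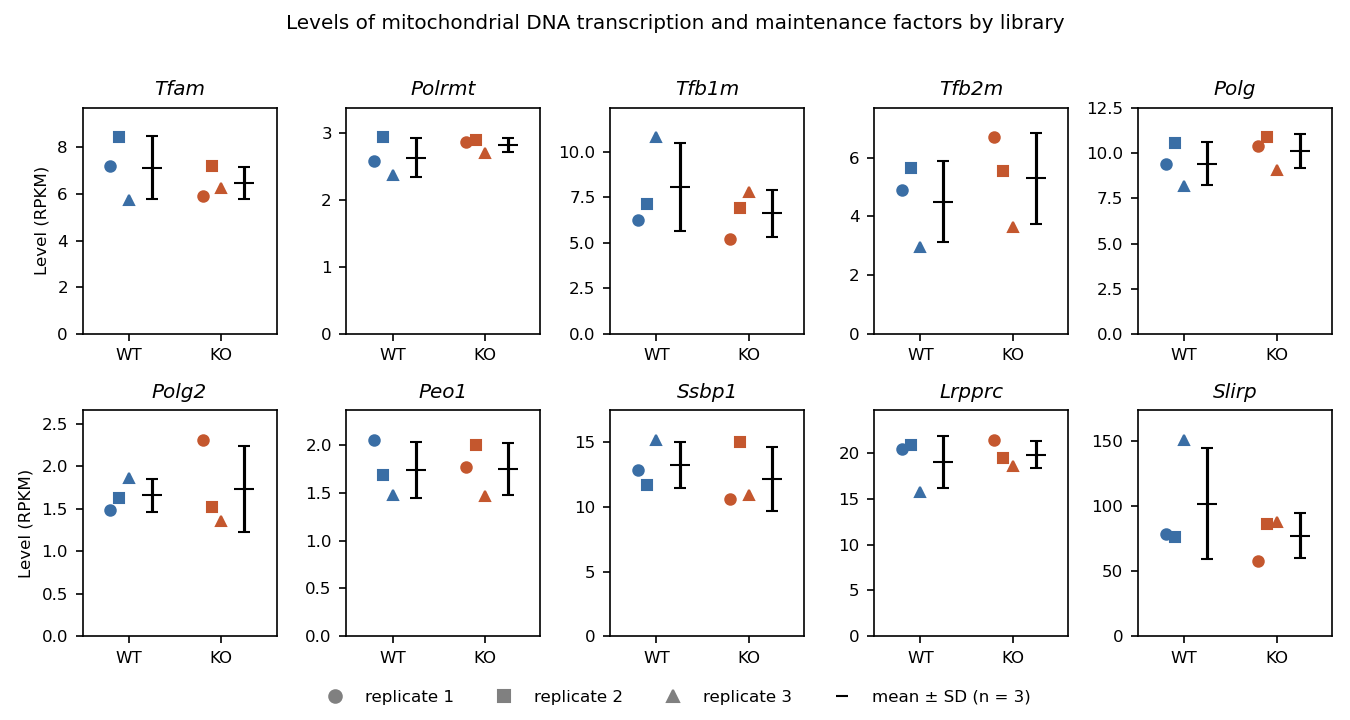
Level in RPKM (linear axes from 0) of each of the 10 genes in the WT (blue) and KO (orange) libraries, with the replicate number as the symbol and the mean ± SD (n = 3) in black. The groups overlapped for every gene, and Slirp (151 RPKM), Tfb1m and Ssbp1 peaked in WT replicate 3, which was lowest for Tfam, Polrmt, Tfb2m, Polg and Lrpprc.

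The question the comparison addresses is which transcripts differ between erythroblasts labelled KO and WT, and no member passed the test. In limma fits over all 8302 rows with a mean of at least 1 RPKM, 0 of the 10 members passed an adjusted p of 0.05, and the background was 0% of rows. At an unadjusted p under 0.05 there were 0 members, against 1.20% of rows, and 0 members had groups that did not overlap, against 4.54% of rows (2.18% higher and 2.36% lower in KO). In KO 6 members were fitted higher and 4 lower, where 47.0% of rows were higher and 53.0% lower. Their median log2 fold change was 0.02, beside -0.02 for all tested rows. All 10 passed the filter on low values, which was set on the mean of all 6 libraries. Without WT replicate 3 again 0 members passed the adjusted test (background 0.0120%), had an unadjusted p under 0.05 (2.20%) or had groups that did not overlap (11.3%, with 5.42% higher and 5.90% lower). In that fit 3 members were higher (44.9% of rows) and 7 lower (55.0%), with a median of -0.03 beside -0.01 for all rows.

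**Figure D2:**
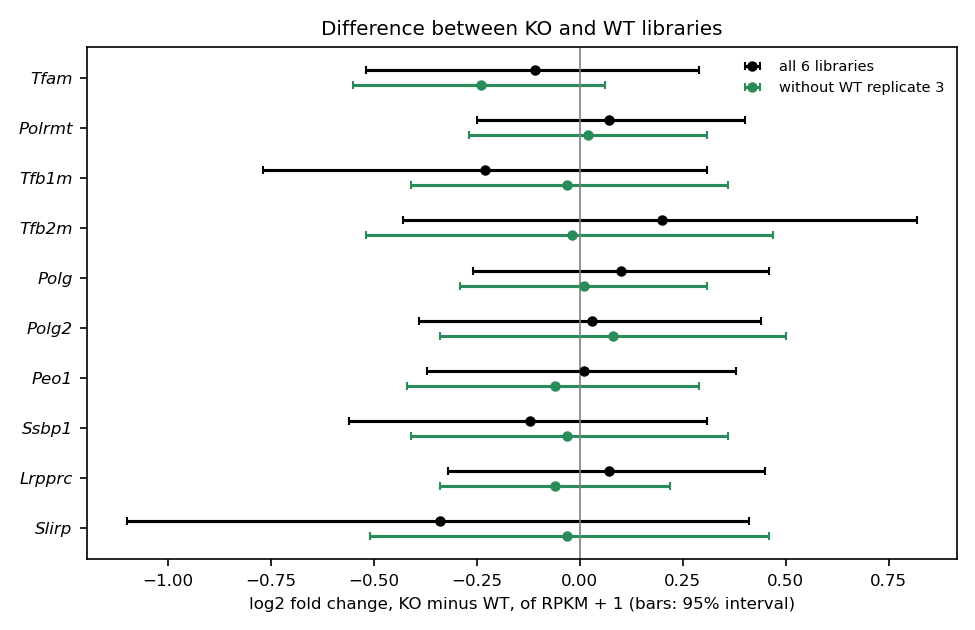
Log2 fold change of RPKM + 1 (KO minus WT) of each gene from the limma fit with all 6 libraries (black) and without WT replicate 3 (green), with 95% intervals. Every interval includes 0, and without WT replicate 3 every value but that of Tfam (-0.24) lies between -0.06 and 0.08.

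Among the transcription factors and the polymerase, Polrmt varied least. Polrmt, which makes the RNA strands and also the primers for replication, was at 2.59, 2.94 and 2.37 RPKM in WT and 2.86, 2.90 and 2.70 RPKM in KO. The KO libraries lay close together inside the WT range, and the group SD was 0.109 RPKM in KO and 0.288 in WT. The log2 fold change was 0.07 (95% interval -0.25 to 0.40), and 0.02 without WT replicate 3.

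The TFB genes went opposite ways between libraries. Tfb2m, which melts the promoter for Polrmt, was at 4.89, 5.65 and 2.97 RPKM in WT and 6.70, 5.55 and 3.62 RPKM in KO. Both libraries numbered 3 were low and KO replicate 1 was the highest. Tfb1m, its relative that methylates the small ribosomal RNA of mitochondria, was at 6.27, 7.13 and 10.8 RPKM in WT and 5.21, 6.88 and 7.77 RPKM in KO. Here both libraries numbered 3 were the highest of their groups and KO replicate 1 was the lowest of all. The log2 fold changes were 0.20 (95% interval -0.43 to 0.82) for Tfb2m and -0.23 (-0.77 to 0.31) for Tfb1m. They were -0.02 and -0.03 without WT replicate 3, so the sign of Tfb2m turned. Within libraries the level of Tfb1m divided by that of Tfb2m was 1.28, 1.26 and 3.63 in WT and 0.778, 1.24 and 2.14 in KO, with overlapping groups.

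The replication factors differed by less than the spread between libraries. Polg, the catalytic subunit of the mitochondrial DNA polymerase, was at 9.43, 10.6 and 8.21 RPKM in WT and 10.4, 10.9 and 9.08 RPKM in KO. It was higher in KO in each pair of equally numbered libraries, by 0.13, 0.03 and 0.13 on the log2 scale, and the groups overlapped. No label says that equal numbers are pairs. The log2 fold change was 0.10 (95% interval -0.26 to 0.46), 0.01 without WT replicate 3, and was -0.12 after trends on transcript length were removed.

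Polg2, the subunit that lets Polg copy long stretches, was at 1.48, 1.63 and 1.86 RPKM in WT and 2.31, 1.52 and 1.36 RPKM in KO. KO replicate 1 was the highest and KO replicate 3 the lowest of all libraries. The log2 fold change was 0.03 (95% interval -0.39 to 0.44), 0.08 without WT replicate 3, and -0.05 after quantile normalization. The second row of Polg2, which was not used, held 0.139, 0.506 and 0.126 RPKM in WT and 0.565, 0.543 and 0.123 RPKM in KO. It was below the used row in every library, but its part differed between libraries. No source used here says how reads were shared between the rows.

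Peo1, the helicase that unwinds mitochondrial DNA, was at 2.05, 1.68 and 1.47 RPKM in WT and 1.77, 2.00 and 1.46 RPKM in KO. Its means were 1.73 ± 0.296 and 1.74 ± 0.268 RPKM (SD, n = 3), the closest of the 10, with a log2 fold change of 0.01 (95% interval -0.37 to 0.38). The sign turned to -0.08 after quantile normalization and to -0.06 without WT replicate 3. Ssbp1, which covers the displaced strand, was at 12.9, 11.7 and 15.2 RPKM in WT and 10.6, 15.0 and 10.9 RPKM in KO. WT replicate 3 and KO replicate 2 were high. The KO minus WT value on the log2 scale was -0.12 (95% interval -0.56 to 0.31), or -0.03 without WT replicate 3 and 0.09 with length trends removed.

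Lrpprc and Slirp, whose proteins form one complex on mitochondrial mRNAs, did not vary together as transcripts. Lrpprc was at 20.4, 20.8 and 15.7 RPKM in WT and 21.4, 19.4 and 18.5 RPKM in KO, lowest in WT replicate 3 and highest in KO replicate 1. Slirp was at 78.8, 76.0 and 151 RPKM in WT and 57.6, 86.5 and 88.0 RPKM in KO, so the same libraries took the opposite ends. Slirp divided by Lrpprc was 3.87, 3.65 and 9.62 in WT and 2.70, 4.45 and 4.75 in KO. The log2 fold changes were 0.07 (95% interval -0.32 to 0.45) for Lrpprc and -0.34 (-1.10 to 0.41) for Slirp, the widest interval of the 10. Without WT replicate 3 they were -0.06 and -0.03, with a WT mean for Slirp of 77.4 RPKM against 77.4 RPKM in KO.

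Some members varied together or in opposition across libraries, and others did not. Over the 6 libraries Pearson's correlation of log2(RPKM + 1) was 0.97 between Slirp and Tfb1m, 0.95 between Polrmt and Polg and 0.92 between Tfb2m and Lrpprc. It was -0.97 between Slirp and Lrpprc and -0.90 between Tfb1m and Tfb2m. Over the 5 libraries without WT replicate 3 these values were 0.89, 0.89, 0.86, -0.84 and -0.77. These 5 pairs were picked from 45 after their values were seen. Other pairs were near 0, such as Tfam and Ssbp1 at -0.02, Polrmt and Polg2 at 0.03 and Polg and Polg2 at 0.08. The correlations are descriptions over few libraries that share the scaling to the library total. Across tested genes WT replicate 3 and KO replicate 1 also deviated in opposite directions by transcript length. Whether these pairs correlate more than other pairs of genes was not tested. WT replicate 3 and KO replicate 1 stood at opposite ends for Slirp (0.81 and -0.57 from the mean of the 6 libraries, log2 scale), Tfb1m (0.53 and -0.40), Tfb2m (-0.54 and 0.42) and Lrpprc (-0.28 and 0.14). Tfam was below the mean in both libraries (-0.20 and -0.16), and Polg2 above it in both (0.09 and 0.31).

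**Figure D3:**
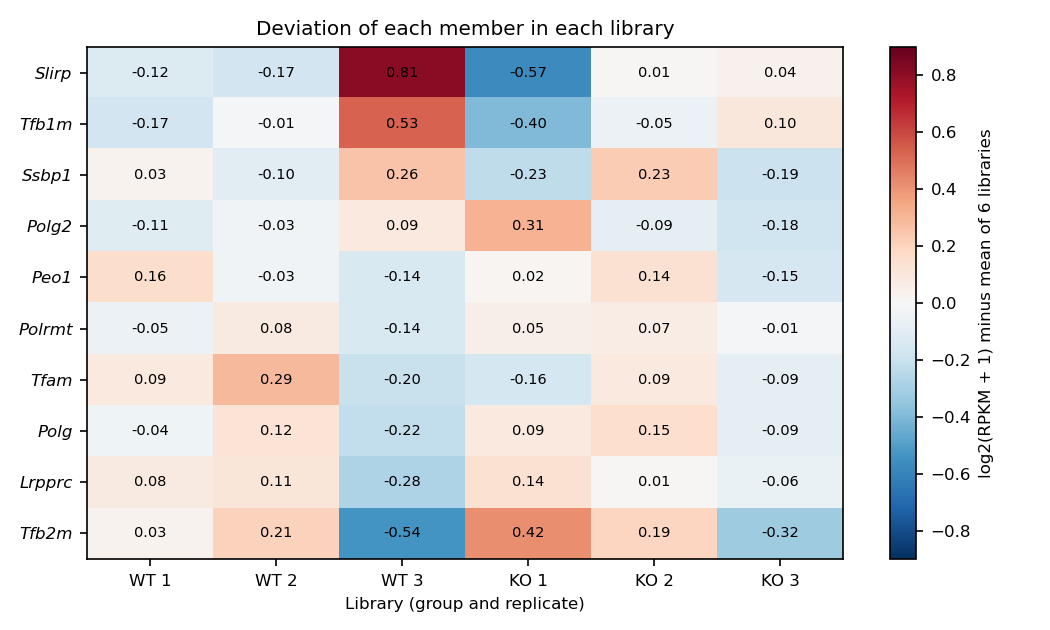
Deviation of log2(RPKM + 1) from the mean of the 6 libraries for each gene (rows, ordered by the value in WT replicate 3) in each library (columns). Red is above and blue below the mean, and WT replicate 3 and KO replicate 1 have opposite signs for every gene except Tfam, below the mean in both, and Polg2, above it in both.

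Transcript length followed the members' deviations in WT replicate 3 only in part. In that library Slirp, Tfb1m, Ssbp1 and Polg2 were above the mean of the libraries, and their transcripts are 1188 to 2701 bases long (median of the RefSeq-linked transcripts in GENCODE M21). The other 6 were below it, with 2449 bases for Tfb2m, 2842 for Peo1, 3755 for Polrmt, 4167 for Tfam, 4393 for Lrpprc and 7837 for Polg. The members at the ends, Slirp (0.81) and Tfb2m (-0.54), had the similar lengths of 2701 and 2449 bases. Transcripts of Ssbp1 that carry a consensus coding sequence range from 933 to 4398 bases. The coding sequence of Slirp is only 336 bases, that of Ssbp1 456 and that of Tfam 729, so the order by coding length was not the same. Removing length trends from each library took the log2 fold change of Tfb1m from -0.23 to -0.05 and that of Tfam from -0.11 to -0.21, while Slirp went from -0.34 to -0.33. The sources used here do not give the annotation behind the deposited values, so these lengths may not be the ones used for them.

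Set beside its partners, Tfam had the lowest fitted log2 fold change of the 10 once WT replicate 3 was left out, though its interval included 0. A ratio within a library does not depend on the library total, so each partner was divided by Tfam in each library. Such a ratio does not remove trends by transcript length, and no ratio was formed after their removal. With length trends removed the log2 fold change was -0.12 for Polg and -0.21 for Tfam. Polg was 1.31, 1.26 and 1.44 times the Tfam level in WT and 1.76, 1.51 and 1.45 times in KO. The groups did not overlap for this ratio, though KO replicate 3 and WT replicate 3 nearly met. The share of all tested rows whose ratio to Tfam separates was not computed, so this separation has no background beside it. The log2 difference was 0.23 (exact two-sided permutation test, p = 0.100, the smallest possible, and 0.9 with Benjamini-Hochberg adjustment over the 9 ratios). For Polrmt the ratio was 0.360, 0.349 and 0.414 in WT and 0.484, 0.402 and 0.432 in KO, with overlapping groups and the same log2 difference of 0.23 (exact permutation p = 0.2, adjusted 0.9).

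The other ratios had overlapping groups. The log2 difference was 0.37 for Tfb2m, 0.20 for Lrpprc, 0.16 for Polg2, 0.14 for Peo1, -0.01 for Ssbp1, -0.14 for Tfb1m and -0.22 for Slirp, with exact permutation p of 0.3 to 1 and adjusted p of 0.9 or 1. Polrmt, Tfb2m, Polg and Lrpprc had a higher ratio in KO in all 3 numbered pairs. No label says that equal numbers are pairs, and the share of all rows with such a ratio was not computed. Without WT replicate 3 all 9 differences were above 0, from 0.17 for Peo1 to 0.39 for Polg2. The 9 ratios share Tfam as the denominator, so they are not independent of each other or of the Tfam level.

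**Figure D4:**
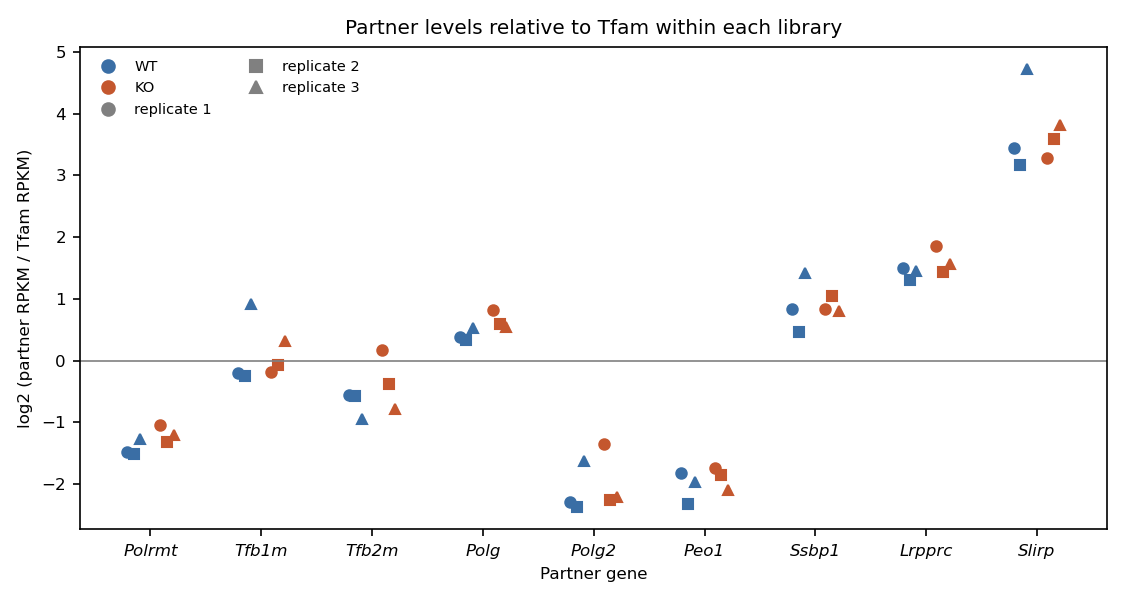
Log2 of the RPKM of each of 9 partner genes divided by that of Tfam in the same library, WT in blue and KO in orange, with the replicate number as the symbol. Among these 9 ratios the groups separate for Polg alone, and the share over all rows was not computed. WT replicate 3 is the highest point for Slirp, Ssbp1 and Tfb1m.

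In order of level per length, Slirp was the most abundant at a mean of 89.6 RPKM over the 6 libraries (57.6 to 151), above 90.1% of tested rows. Lrpprc followed at 19.4 RPKM (15.7 to 21.4), and its range met neither that of Slirp nor that of Ssbp1. Ssbp1 at 12.7 RPKM, Polg at 9.78, Tfb1m at 7.34, Tfam at 6.79 and Tfb2m at 4.90 overlapped in range, each with its neighbour in this order. Overlap of ranges across libraries does not say how 2 genes compare within a library. Within the 6 libraries Ssbp1 was above Polg in 6 and Polg above Tfb1m in 5. Tfb1m was above Tfam in 2 and Tfam above Tfb2m in 5. Polrmt at 2.73 RPKM (2.37 to 2.94) lay below every value of Tfb2m and above every value of Peo1. Peo1 at 1.74 and Polg2 at 1.69 RPKM overlapped and were near the bottom of the tested rows, above 9.0% and 8.53% of them. The Polg2 value leaves out its second row (mean 0.334 RPKM), so the order of Peo1 and Polg2 rests on the row used. Polrmt, Peo1 and Polg2 thus had levels well below those of the DNA-binding factors Tfam and Ssbp1.

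The 3 genes outside the pathway whose profile over the 6 libraries was most like that of Tfam were Dnalc4, a dynein light chain gene, Iars, the cytosolic isoleucyl-tRNA synthetase, and Dnaja3, a mitochondrial chaperone of the DnaJ family. Their Pearson correlations with Tfam on log2(RPKM + 1) were 0.9820, 0.9799 and 0.9719, picked as the highest of 7894 rows. Dnaja3 was at 8.07, 8.81 and 7.13 RPKM in WT and 7.06, 8.32 and 7.69 RPKM in KO, highest in WT replicate 2 as Tfam was. Among these rows 26 (0.329%) reached a correlation of 0.9.

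The wider pathway was read from a list of 79 other genes for mitochondrial DNA expression and maintenance, all found in the table, 69 of them on tested rows. In the limma fit 0 of the 69 passed in either direction (background 0%), 1 had an unadjusted p under 0.05 (background 1.20%) and 2 had groups that did not overlap (background 4.54%). Fitted values were higher in KO for 24 of the 69 and lower for 45, with a median log2 fold change of -0.04 beside -0.02 for all rows. Without WT replicate 3 there were 29 higher and 40 lower, with a median of -0.02. In that fit again 0 of 69 passed (background 0.0120%), 1 had an unadjusted p under 0.05 (2.20%), and the groups did not overlap for 3 genes higher (5.42%) and 5 lower in KO (5.90%).

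By role, all 5 genes of nucleoid proteases and scaffold were fitted lower (median -0.22), against 3 of 5 without WT replicate 3 (median -0.05). One of them is Lonp1, the protease that degrades free Tfam, which was at 23.6, 26.4 and 29.4 RPKM in WT and 22.8, 25.2 and 24.4 RPKM in KO. The log2 fold change of Lonp1 was -0.12 (95% interval -0.48 to 0.23), and -0.05 without WT replicate 3. The 4 tested genes of transcription elongation and termination had log2 fold changes of -0.17 to -0.02, all below 0. Without WT replicate 3 they were -0.0014 to 0.16, with 3 of 4 above 0, so this direction turned. The 8 tested genes of replication, topology and repair had a median of -0.0010, and -0.05 without WT replicate 3. The elongation factor Tefm, with a mean under 1 RPKM, was not tested. It was at 0.663, 0.646 and 0.667 RPKM in WT and 0.431, 0.695 and 0.422 RPKM in KO, with KO replicate 2 above all WT libraries.

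The nuclear regulators of these genes were measured too. Nrf1, a transcription factor of respiratory genes, was at 36.5, 37.7 and 43.7 RPKM in WT and 30.7, 29.9 and 42.8 RPKM in KO. KO replicates 1 and 2 were below all WT libraries and KO replicate 3 was not. The log2 fold change was -0.20 (95% interval -0.65 to 0.25), and -0.12 without WT replicate 3. Gabpa, the DNA-binding subunit of GABP, whose core motif is shown above, was at 9.22, 9.55 and 5.30 RPKM in WT and 9.28, 9.75 and 8.70 RPKM in KO. WT replicate 3 alone was low. The log2 fold change of Gabpa was 0.22 (95% interval -0.30 to 0.74) with it and -0.02 without it. Gabpb2, a partner subunit, was at 22.9, 27.7 and 9.45 RPKM in WT and 27.2, 24.6 and 25.0 RPKM in KO, with a log2 fold change of 0.46 that was 0.02 without WT replicate 3. The coactivator Ppargc1a was at most 0.0126 RPKM in any library and was not tested.

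At the ends of the pathway list stood rows that join several genes or followed WT replicate 3. The row of Tbrg4, a mitochondrial RNA-binding protein, is shared with the small nucleolar RNA Snora5c and cannot be assigned to either. It was at 18.0, 17.2 and 20.9 RPKM in WT and 54.3, 21.1 and 51.8 RPKM in KO, so KO replicates 1 and 3 were high while KO replicate 2 barely exceeded WT. Its log2 fold change was 1.03 (limma, 95% interval 0.19 to 1.86, unadjusted p = 0.0224, adjusted p = 0.909), and 1.11 without WT replicate 3. The lowest were the row of Tymp, which breaks down thymidine, shared with Sco2 (log2 fold change -0.43), and Nme4, a mitochondrial nucleoside diphosphate kinase (-0.40). Without WT replicate 3 they were -0.20 and -0.14. The other gene whose groups did not overlap was Rpusd4, a mitochondrial pseudouridine synthase gene chosen after its values were seen, at 3.26, 3.0 and 3.19 RPKM in WT and 2.48, 2.94 and 2.48 RPKM in KO (log2 fold change -0.19, the same without WT replicate 3).

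**Figure D5:**
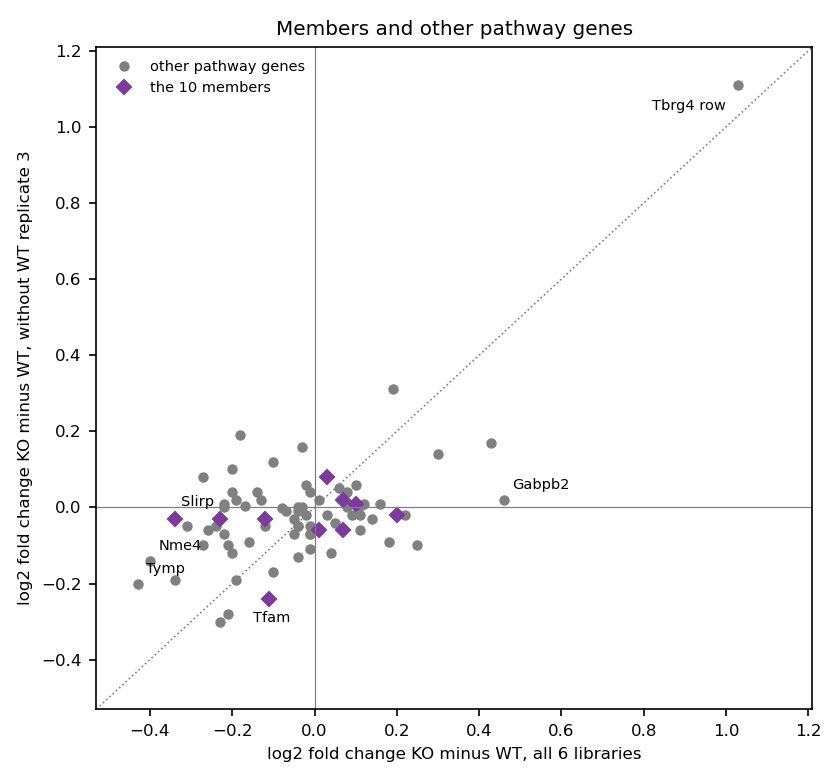
Log2 fold change (KO minus WT) of RPKM + 1 with all 6 libraries (x axis) and without WT replicate 3 (y axis) for the 10 members (diamonds) and the 69 other tested pathway genes (grey points), with the line of equal values dotted. Most points draw toward 0 on the y axis, and the row of Tbrg4, shared with Snora5c, stands apart at 1.03 and 1.11.

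The intervals leave room for differences in either direction. With all libraries the 95% interval of the fold of RPKM + 1 ran from 0.699 to 1.23 for Tfam, from 0.843 to 1.32 for Polrmt, and from 0.468 to 1.33 for Slirp. The results do not show that the levels were equal. Names of mRNAs encoded by mitochondrial DNA were searched and were on no row, so what these factors transcribe was not analysed here.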

How the data were processed

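RNA-seq of 6 libraries (3 Tfam WT, 3 Tfam KO) was deposited as RPKM, read density scaled to transcript length and to mapped reads. The authors made the RPKM values with TopHat and Cufflinks on build mm9, per the submitters' processing notes. Tool versions, the annotation and the strand setting: not given in the sources used here. Since length is divided out, a library that favours short transcripts shifts genes by length. Of 23119 rows, 25 carry a number for a name (0.158% of RPKM) and were left out.

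Absolute depth is unknown. Ratios of values below 0.05 RPKM fell on whole-read steps (within 0.03, log2 scale) for 39.9% to 75.4% of rows in 4 libraries, giving depths of 79.0% to 91.7% of WT replicate 2, and for 17.2% in WT replicate 3, whose depth was not resolved. Intervals on single values, which need counts, are not given.

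The 8302 rows with a mean of at least 1 RPKM were tested with limma 3.58.1 (R 4.3.3) on log2(RPKM + 1), a scale that understates changes of low genes, with a trended variance and Benjamini-Hochberg adjustment, without a block. Single values were tested by exact permutation. Alternatives were a pseudocount of 0.1, no filter or 5 RPKM, quantile normalization, length trends removed (GENCODE M21 lengths for 95.1% of rows), library weights, a replicate block, and leaving out each library.

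The members, lists, motifs and tests were chosen with earlier results of these data known. A further marker list is not reported here. The named genes are the 10 members, the 2 highest and 2 lowest tested pathway genes, Nrf1, Gabpa, Ppargc1a, Lonp1 and Tefm, and the 3 genes most like Tfam. Rpusd4 was named outside this rule, after its values were seen. Slc4a1 and Cd163 were named as markers, and Klf1, Itga2b and Gp1bb as markers on shared rows. Equal replicate numbers were treated as pairs only in the replicate block and in the comparisons of equally numbered libraries, and no label calls them pairs. Deviations of equally numbered libraries from their group means correlated at 0.46, 0.17 and 0.53, each above 0.1. WT replicate 2 correlated more with KO replicate 1 (0.40) than with its own number. WT replicates 1 and 2 went against KO replicate 3 (-0.4 and -0.48), and WT replicate 3 against KO replicate 1 (-0.51). These values thus do not show that the numbers are pairs. Python 3.11.15 and matplotlib 3.10.9 drew the figures.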

Additional observations from a re-analysis of the deposited data

How the results depend on the processing

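No member passed an adjusted p of 0.05 under any of the 14 alternatives (lowest 0.471, library weights), and no other pathway gene did. Over all rows limma called 0 genes, 60 with library weights (21.4 for WT replicate 1, 0.565 and 0.0859 for WT replicates 2 and 3, so WT was nearly that 1 library), and 0 to 2 when 1 library was left out (1 without WT replicate 3, 2 without KO replicate 2, 1 without KO replicate 3). Of 136 member values under alternatives, 117 kept their direction and 19 did not. With the replicate block 0 members and 0 genes passed, and it changed no call. With length trends removed, with or without the replicate block, the log2 fold change turned to -0.12 for Polg, 0.09 for Ssbp1 and -0.04 for Lrpprc. Quantile normalization turned Polg2 (-0.05) and Peo1 (-0.08), and library weights Peo1 (-0.12) and Lrpprc (-0.01). Leaving out 1 library at a time gave -0.24 to 0.0032 for Tfam, -0.02 to 0.40 for Tfb2m, -0.12 to 0.12 for Polg2, -0.06 to 0.09 for Peo1 and -0.06 to 0.13 for Lrpprc. The ratios to Tfam then gave -0.34 to 0.24 for Tfb1m, -0.13 to 0.39 for Polg2, -0.01 to 0.25 for Peo1, -0.23 to 0.25 for Ssbp1 and -0.53 to 0.25 for Slirp. Quantile normalization turned those of Ssbp1 (0.07) and Slirp (0.0003). The cause of these turns was not tested. Pairing by replicate left the Tfam difference at -0.658 RPKM (exact sign-flip permutation p = 0.500, smallest possible 0.25).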
